A study of Homo sapiens with 27 samples.

Results

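A set of 10 genes was listed as matrix and adhesion genes of the invasive state of melanoma, namely VIM, CDH2, CD44, SPARC, TIMP1, TIMP2, TIMP3, SERPINE2, THBS1 and FN1, and its members were taken by symbol from the normalised expression table. Of the 10 genes, 6 had a row among the 13523 genes of the table, and CDH2, CD44, TIMP3 and THBS1 were not analysed here. RNA was measured by 3′ end sequencing in 501mel, an established human melanoma cell line with high MITF. The WT groups were Non-treated cells (WT CTRL), cells kept for 12 h in HBSS, a buffered salt solution with glucose and no amino acids (WT HBSS), and cells given 250 nM Torin1, an inhibitor of the mTOR kinase, for 12 h (WT Torin). Cells with the genotypes TFE3 KO, TFEB KO, or TFE3 and TFEB double KO (DKO) were each measured after 12 h CTRL and after 12 h with 250 nM Torin1. Per the study's methods each knockout is a clonal line made by Cas9 editing, so that a genotype and a clone cannot be told apart, and the WT CTRL cells carry another treatment label than the CTRL cells of the knockouts. HBSS was given to WT cells alone.

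Melanoma cells can move between a differentiated state with high MITF and an invasive state, in which cells secrete and remodel matrix and change how they attach to it. Fibronectin (FN1) is a matrix glycoprotein that integrins bind, SPARC is a secreted protein that binds collagen, and vimentin (VIM) is the intermediate filament of mesenchymal cells. SERPINE2 (protease nexin-1) inhibits thrombin and plasminogen activators, while TIMP1 and TIMP2 inhibit metalloproteinases. MITF, TFEB and TFE3 are related transcription factors, and TFEB and TFE3 are kept in the cytoplasm by mTORC1 when amino acids are plentiful.

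Each of the 9 groups had 3 labelled libraries, 27 in all, but WT HBSS replicate 3 and WT Torin replicate 1 hold the same value for each of the 13523 genes. The labels do not tell which sample these values belong to, so that both were left out. Thus 25 libraries entered the fit and these groups held 2 libraries each. The shared column held MITF at 1500 (1392 and 1454 in WT HBSS, 735 and 732 in WT Torin). It held FN1 at 169 (162 and 172, against 253 and 281) and TFEB at 23.9 (30.4 and 28.0, against 5.63 and 4.27), nearer to WT HBSS. SERPINE2 at 535 and TIMP2 at 365 were nearer to WT HBSS too. TIMP1 was at 76.9, inside the ranges of WT Torin and of WT CTRL, with no called difference between HBSS and Torin (limma, adjusted p = 0.46). Added to WT Torin, as in an alternative below, the column can draw that group toward WT HBSS. Calls changed in that setting thus do not tell how firm a Torin difference is. Depth was 4147050 to 6526392 reads per library, 12895 to 13414 genes had a read, and 3 reads corresponded to a normalised read count of 0.460 to 0.711. The 6 genes lay well above this, from 176 reads for FN1 in its lowest library to 7069 reads for VIM in its highest. All 8 melanocyte lineage markers had a row, with a summed normalised read count of 5193 to 14482 per library, whereas 4 of 8 fibroblast markers had one, with a sum of 0.832 to 9.42. The lineage sum was highest in WT HBSS, at 14332 to 14482, against 6243 to 6433 in WT CTRL. MITF itself rose with HBSS by 0.90 on the log2 scale (limma, adjusted p = 1.55e-15). It was lower in DKO CTRL than in WT CTRL by -0.46 (adjusted p = 1.79e-07). CD68 was the only one of 5 immune markers with a row (29.5 to 74.2), and no endothelial or epithelial marker of the 4 listed for each had one. TFE3 was at 24.0 ± 0.285 (SD, n = 3) in WT CTRL, 6.30 ± 1.27 in TFE3 KO CTRL and 6.35 ± 0.470 in DKO CTRL (n = 3 each), and was at 10.8 ± 2.80 in TFE3 KO Torin (n = 3). TFEB was near the floor of 3 reads in several groups, at 3.25 ± 0.827 in WT CTRL, 1.11 ± 0.485 in TFEB KO CTRL, 0.661 ± 0.457 in DKO CTRL and also 0.681 ± 0.764 in TFE3 KO CTRL (n = 3 each). In WT HBSS it was at 29.2 ± 1.65 (n = 2), a rise of 2.85 on the log2 scale (limma, adjusted p = 4.43e-09). Reads from the 3′ end do not report whether the cut site is intact, so that these levels check the labels only in part.

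The clearest change among these genes was that of FN1, which was higher in all 13 treated libraries than in any of the 12 untreated ones. SERPINE2, SPARC and VIM rose with Torin in WT and in each knockout by smaller amounts, and did not pass the test with HBSS. SERPINE2 and SPARC were lower in TFE3 KO than in WT with and without Torin, whereas SERPINE2 was higher in TFEB KO CTRL. TIMP2 rose with HBSS and was lower in the DKO. A gene is said here to have passed the test at an adjusted p under 0.05 (limma, Benjamini-Hochberg over 13052 genes), and a fold change is a difference of log2(normalised read count + 1), with its standard error (SE). Replicates were not labelled as separate cultures, so that p-values measure the spread between these libraries, which may be technical. In bulk RNA, fewer cells with a transcript and less of it per cell cannot be told apart.

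**Figure D1:**
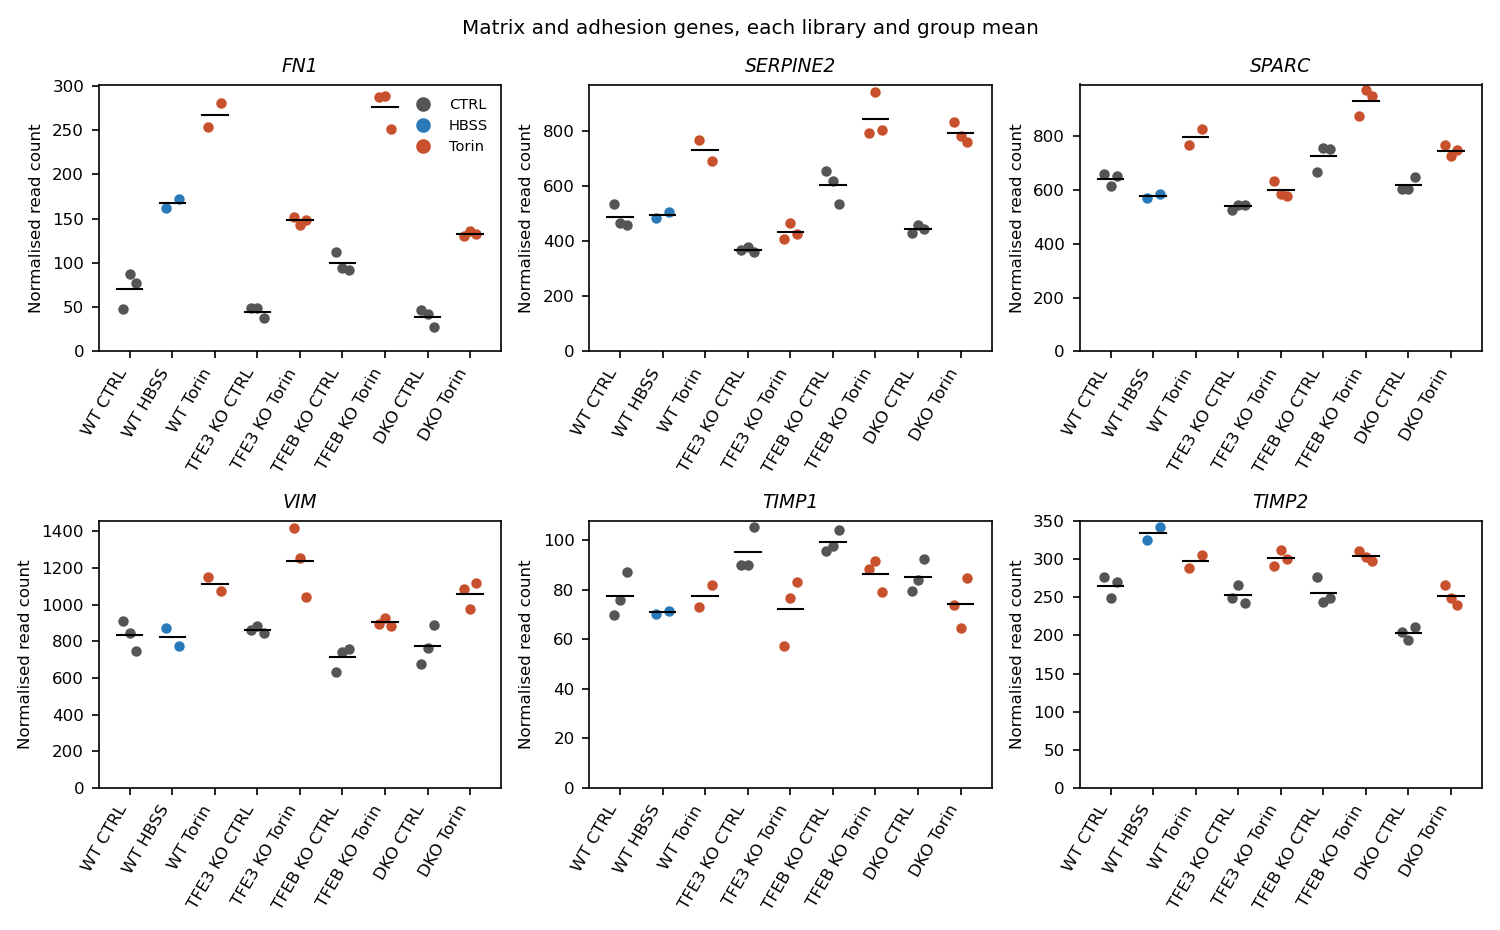
Normalised read count of FN1, SERPINE2, SPARC, VIM, TIMP1 and TIMP2 (vertical axis, linear, from 0) in each of the 25 libraries by group, with bars at the group means. FN1 spans 27.5 to 288.5, a range of 10.5-fold, and the other 5 genes span 1.77-fold to 2.60-fold.

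FN1 (ENSG00000115414.21, hg38 chr2:215360440-215436073, minus strand) was read in WT CTRL at 48.0, 87.9 and 77.1, in WT HBSS at 162 and 172, and in WT Torin at 253 and 281. The treated libraries did not overlap with the controls, and replicate 1 was the low control. HBSS raised FN1 by 1.27 on the log2 scale (SE 0.21, 2.41-fold, adjusted p = 6.72e-05) and Torin by 1.94 (SE 0.21, 3.83-fold, adjusted p = 6.44e-07). The level under HBSS was below that under Torin by -0.67 (SE 0.23, adjusted p = 0.0232), a difference that no longer passed without WT HBSS replicate 1, without WT HBSS replicate 2 or without WT Torin replicate 3 (adjusted p = 0.0993, 0.0609 and 0.115) or with the duplicated column added to WT Torin (0.129). That column held FN1 at 169, inside the WT HBSS range.

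In the knockouts FN1 moved from 48.9, 48.6 and 37.3 in TFE3 KO CTRL to 152, 143 and 149 with Torin. It moved from 112, 94.6 and 92.3 in TFEB KO CTRL to 288, 289 and 251 with Torin, and from 46.4, 42.4 and 27.5 in DKO CTRL to 130, 137 and 133. Every knockout thus kept its treated libraries apart from its untreated ones. The rise was 1.71 in TFE3 KO, 1.46 in TFEB KO and 1.79 in the DKO (SE 0.19 each, adjusted p = 4.82e-07, 6.93e-06 and 2.88e-07). None of these responses passed a test of the difference from the WT response, which was -0.23 (95% interval -0.83 to 0.37) for TFE3 KO, -0.48 (-1.08 to 0.12) for TFEB KO and -0.15 (-0.75 to 0.45) for the DKO. These intervals leave room for a response that differs by more than the differences given.

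The level around which FN1 moved differed between the genotypes. Without drug it was lower in the DKO than in WT by -0.84 (SE 0.19, adjusted p = 0.00535) and lower in TFE3 KO by -0.61 (SE 0.19, adjusted p = 0.0496), although the TFE3 KO and WT ranges touched at 48.9 and 48.0. The TFE3 KO difference no longer passed without WT CTRL replicate 2 or 3 or without TFE3 KO CTRL replicate 1, 2 or 3 (adjusted p = 0.187, 0.161, 0.0724, 0.0789 and 0.188), and with the spread taken from the compared libraries alone neither passed (0.194 for TFE3 KO and 0.116 for the DKO). TFEB KO CTRL lay above every WT CTRL library, with a difference of 0.52 (SE 0.19) that did not pass (adjusted p = 0.0737), and that passed with DESeq2 (0.0412) and without WT CTRL replicate 2 (0.0198). TFE3 KO was lower than TFEB KO by -1.14 (SE 0.19, adjusted p = 0.000167). Of the genotype comparisons run, which did not set the DKO against TFEB KO, this was the one in which any of the 6 genes reached 2-fold. Under Torin FN1 was lower than in WT by -0.84 in TFE3 KO and -0.996 in the DKO (SE 0.21 each, adjusted p = 0.0157 and 0.0044), while TFEB KO differed by 0.05 (95% interval -0.40 to 0.49). The Torin differences rest on 2 WT libraries, and the TFE3 KO value no longer passed without WT Torin replicate 2 or 3 (adjusted p = 0.0667 and 0.125) nor the DKO value without WT Torin replicate 3 (0.0556).

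Ordered by level, FN1 ran from DKO CTRL over TFE3 KO CTRL, WT CTRL, TFEB KO CTRL, DKO Torin, TFE3 KO Torin, WT HBSS and WT Torin to TFEB KO Torin. Ranges of neighbours overlapped between DKO CTRL and TFE3 KO CTRL, between TFE3 KO CTRL and WT CTRL, and between WT Torin and TFEB KO Torin. The gene most like FN1 over the 25 libraries was MYH9, the heavy chain of non-muscle myosin IIA, with r = 0.967 among 9855 genes with a mean of at least 5. MACF1, a linker of actin and microtubules, and the nuclear RNA MALAT1 came next (r = 0.955 and 0.942), and were looked at after their values were seen. The points share their library and its depth, so that r is a description. The low control library was low in all of them, since WT CTRL replicates 1, 2 and 3 held MYH9 at 108, 189 and 160 and MALAT1 at 1619, 3464 and 2469. DKO CTRL replicate 3, the lowest library for FN1, held MALAT1 at 933. The part of this shared deviation in the FN1 differences was not tested.

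**Figure D2:**
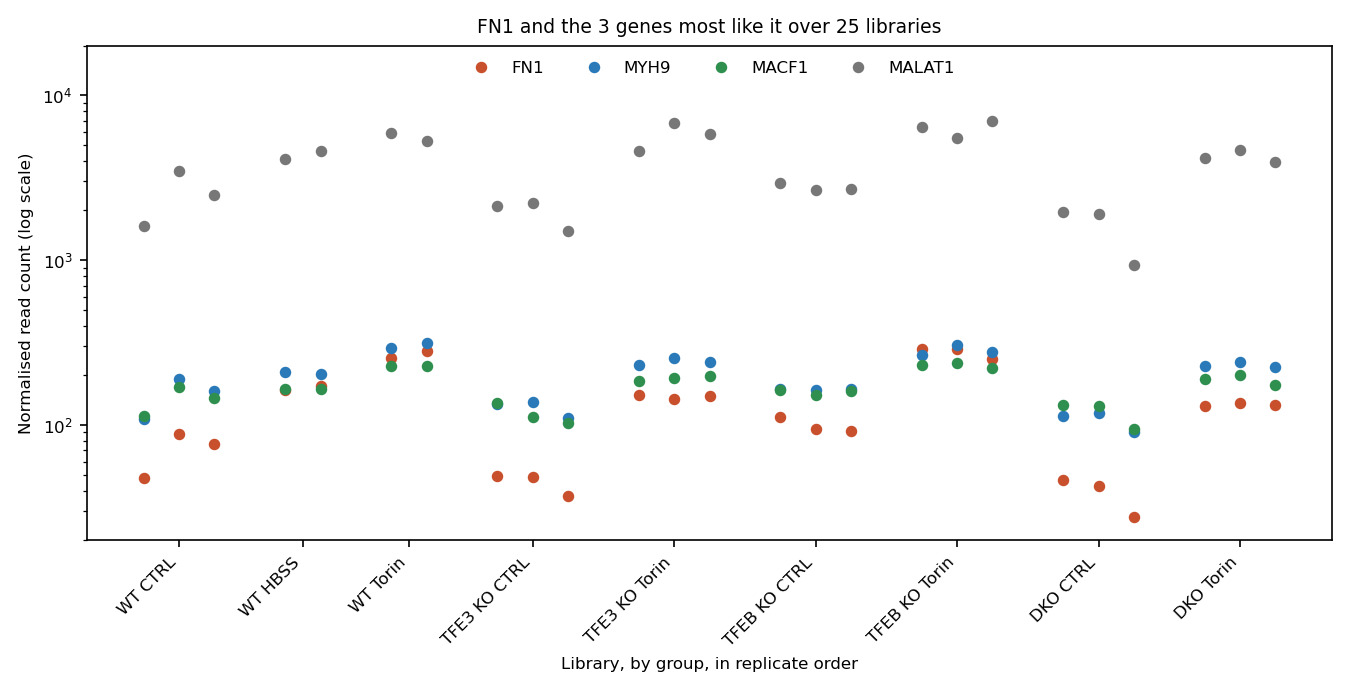
Normalised read count (vertical axis, log scale) of FN1, MYH9, MACF1 and MALAT1 in each of the 25 libraries, grouped by condition. In WT CTRL, replicate 1 is the lowest point for each of the 4 genes, at 48.0 for FN1 and 1619 for MALAT1.

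The window around the FN1 start site (RefSeq, GRCh38.p14, chr2:215436019-215436318, minus strand, 250 bases before to 50 after the start) is shown because FN1 had the widest range of these genes. It held none of the motifs searched, which were CACGTG and CATGTG (with its reverse CACATG), the letters of sites that MITF, TFEB and TFE3 are known to bind, TGACTCA (reverse TGAGTCA), the letters of an AP-1 site, and GGAATG (reverse CATTCC), the letters of a TEAD site, each on both strands.

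FN1: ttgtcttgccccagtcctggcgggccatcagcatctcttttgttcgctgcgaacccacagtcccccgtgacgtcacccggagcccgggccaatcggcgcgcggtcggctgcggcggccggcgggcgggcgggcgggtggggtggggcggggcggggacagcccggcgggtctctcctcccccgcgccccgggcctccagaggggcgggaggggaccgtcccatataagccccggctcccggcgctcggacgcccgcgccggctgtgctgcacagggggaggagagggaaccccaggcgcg

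Of the 35116 RefSeq windows of 300 bases, 7.26% held CACGTG, 11.1% CATGTG, 4.95% TGACTCA and 14% GGAATG. Windows were at hand for 5 of the 6 genes, and those of VIM and TIMP1 held none of these letters either, while that of SPARC (chr5:151686866-151687165, minus strand) held GGAATG once, at -17 from the start. No match says only that these letters are missing from the window.

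SERPINE2 (ENSG00000135919.14, chr2:223975045-224039318, minus strand) has 2 annotated starts in this set. The window of the inner start (chr2:224031429-224031728) is shown because it held the most matches among the windows of these genes, and capitals mark the matches to CACGTG and CATGTG.

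SERPINE2: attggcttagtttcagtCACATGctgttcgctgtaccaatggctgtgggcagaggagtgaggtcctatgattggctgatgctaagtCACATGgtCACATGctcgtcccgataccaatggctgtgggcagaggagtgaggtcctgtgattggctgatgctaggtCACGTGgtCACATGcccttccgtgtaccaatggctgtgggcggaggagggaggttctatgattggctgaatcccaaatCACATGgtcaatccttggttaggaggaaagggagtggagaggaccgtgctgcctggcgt

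It held CACGTG once, at -87, and CATGTG, written here as CACATG, 5 times, at -233, -164, -156, -79 and -9 from the start. Windows with at least 6 such matches, a number set by this window, were 4 of 35116 (0.0114%). The stretch accaatggctgtgggc stands more than once in this window, with a match after each copy. The matches thus lie in a repeated sequence and are not independent of each other, so that this share does not measure how unusual they are. The window of the outer start (chr2:224038591-224038890) held none. A match is a description and not a bound site, and reads from the 3′ end do not tell which start was used.

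SERPINE2 was read at 536, 466 and 456 in WT CTRL, 484 and 505 in WT HBSS, and 766 and 692 in WT Torin. HBSS libraries lay inside the control range, whereas both Torin libraries lay above it. Torin raised SERPINE2 by 0.59 (SE 0.08, adjusted p = 1.16e-07), and with HBSS the difference was 0.03 (95% interval -0.14 to 0.20, adjusted p = 0.803). HBSS and Torin differed from each other by -0.56 (SE 0.09, adjusted p = 1.72e-06).

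Without drug SERPINE2 was read at 366, 379 and 361 in TFE3 KO, at 655, 618 and 533 in TFEB KO and at 429, 457 and 445 in the DKO. All TFE3 KO libraries lay under the WT range, and 1 TFEB KO library, at 533, lay inside it. Against WT the level fell by 0.39 in TFE3 KO (SE 0.07, adjusted p = 0.000165) and rose by 0.31 in TFEB KO (SE 0.07, adjusted p = 0.00322), and the DKO differed by -0.13 (95% interval -0.28 to 0.02, adjusted p = 0.295). TFE3 KO and TFEB KO differed from each other by -0.70 (SE 0.07, 0.616-fold, adjusted p = 2.59e-10).

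With Torin SERPINE2 was read at 406, 464 and 425 in TFE3 KO, 790, 938 and 803 in TFEB KO, and 832, 782 and 757 in the DKO. Of the TFE3 KO libraries only the highest reached the range of WT without drug, and the DKO libraries overlapped with those of WT Torin. Against WT Torin, TFE3 KO was lower by -0.75 (SE 0.08, adjusted p = 3.83e-09), whereas TFEB KO differed by 0.21 (SE 0.08, adjusted p = 0.0756) and the DKO by 0.12 (SE 0.08, adjusted p = 0.4). The TFEB KO difference passed with the spread of the compared libraries (0.033) and with the duplicated column added to WT Torin (0.0232). That column held SERPINE2 at 535, below both WT Torin libraries, so that adding it lowers that group. The Torin response itself was 0.22 in TFE3 KO, 0.49 in TFEB KO and 0.83 in the DKO (SE 0.07 each, adjusted p = 0.0101, 7.21e-07 and 3.4e-13), and the TFE3 KO response no longer passed without TFE3 KO Torin replicate 2 (adjusted p = 0.0834). Against the WT response none of the 3 differences passed, at -0.36 for TFE3 KO (SE 0.11, adjusted p = 0.122), -0.10 for TFEB KO (adjusted p = 0.753) and 0.24 for the DKO (adjusted p = 0.446), although that of TFE3 KO passed without WT CTRL replicate 1 (-0.43, adjusted p = 0.0325). The DKO and TFE3 KO responses, a pair compared after the values were seen, differed by 0.61 (SE 0.11, adjusted p = 0.0021), and under Torin the DKO was above TFE3 KO by 0.87 (SE 0.07, adjusted p = 1.89e-12). By likeness, SERPINE2 went with SNX9, a sorting nexin of endocytosis (r = 0.924 over the 25 libraries).

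SPARC (ENSG00000113140.11, chr5:151661096-151686975, minus strand) was read at 658, 614 and 653 in WT CTRL, 572 and 586 in WT HBSS, and 766 and 827 in WT Torin. The HBSS libraries lay below and the Torin libraries above the controls. Torin raised SPARC by 0.31 (SE 0.07, adjusted p = 0.000365), while the HBSS difference of -0.15 (SE 0.07) did not pass (adjusted p = 0.087). Added to WT Torin, the duplicated column ended the Torin call (0.15, adjusted p = 0.23), and added to WT HBSS it brought the HBSS difference past the threshold (-0.16, adjusted p = 0.0378). That column held SPARC at 569, below both WT HBSS libraries, so that adding it to WT Torin lowers that group. SPARC under HBSS was lower than under Torin by -0.46 (SE 0.08, adjusted p = 3.69e-06).

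Across the knockouts without drug SPARC was read at 527, 546 and 546 in TFE3 KO, 665, 758 and 754 in TFEB KO, and 604, 605 and 649 in the DKO. TFE3 KO lay below and TFEB KO above all WT controls, and the DKO overlapped with WT. The TFE3 KO difference from WT was -0.25 (SE 0.06, adjusted p = 0.00691), that of TFEB KO 0.18 (SE 0.06) did not pass with limma (adjusted p = 0.0544) and passed with edgeR (0.0431) and DESeq2 (0.0326), and that of the DKO was -0.05 (95% interval -0.18 to 0.08). The TFEB KO difference also passed without TFEB KO CTRL replicate 1 (0.24, adjusted p = 0.0197). TFE3 KO was lower than TFEB KO by -0.42 (SE 0.06, adjusted p = 8.96e-07).

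With Torin SPARC was read at 632, 585 and 578 in TFE3 KO, 874, 970 and 951 in TFEB KO, and 766, 726 and 748 in the DKO. The TFEB KO libraries were above, and those of TFE3 KO below, those of WT Torin. The DKO libraries were below them too, but the highest, at 766.2, nearly met the lowest WT Torin library, at 766.4. Under Torin the DKO difference from WT was -0.09 (SE 0.07) and did not pass (limma, adjusted p = 0.441). SPARC rose with Torin by 0.15 in TFE3 KO (SE 0.06, adjusted p = 0.0483), 0.36 in TFEB KO (SE 0.06, adjusted p = 1.06e-05) and 0.27 in the DKO (SE 0.06, adjusted p = 0.000426). The rise in TFE3 KO no longer passed without TFE3 KO CTRL replicate 1, 2 or 3 or TFE3 KO Torin replicate 1 or 2 (adjusted p = 0.139, 0.0742, 0.074, 0.212 and 0.0583). Under Torin SPARC was lower in TFE3 KO than in WT by -0.41 (SE 0.07, adjusted p = 4.71e-05), and with the duplicated column added to WT Torin the difference was -0.25 (adjusted p = 0.0677). It was higher in TFEB KO by 0.23 (SE 0.07, adjusted p = 0.0221), which no longer passed without WT Torin replicate 2 or TFEB KO Torin replicate 2 or 3 (adjusted p = 0.237, 0.0847 and 0.0652). The gene most like SPARC was SERPINE2 (r = 0.897 over the 25 libraries).

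**Figure D3:**
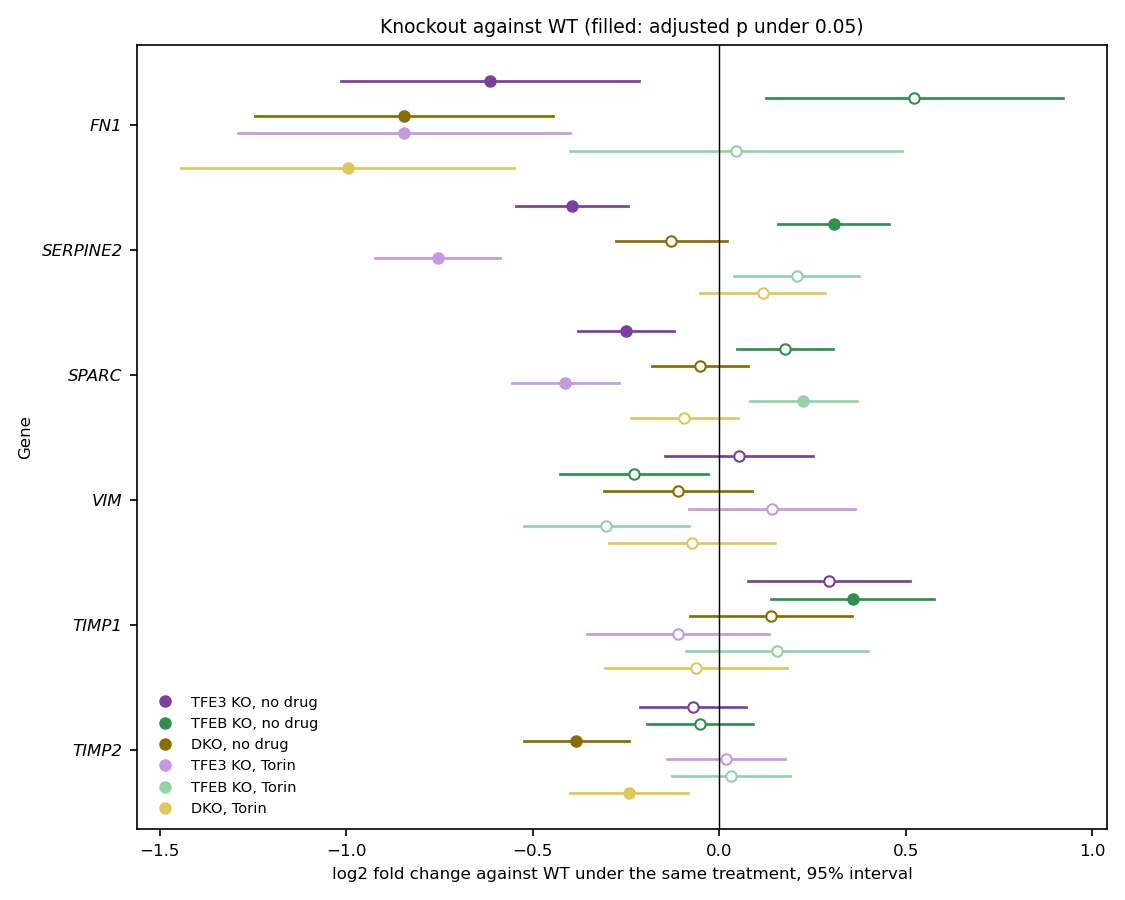
log2 fold change (horizontal axis) of each knockout against WT under the same treatment for the 6 genes, with 95% intervals from limma and filled points at an adjusted p under 0.05. SERPINE2 and SPARC lie to the left of 0 in TFE3 KO and to the right in TFEB KO, where SERPINE2 without drug and SPARC under Torin passed, and FN1 lies to the left in TFE3 KO and the DKO.

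VIM (ENSG00000026025.16, chr10:17228241-17237593, plus strand) was read at 908, 846 and 750 in WT CTRL, 871 and 775 in WT HBSS, and 1151 and 1076 in WT Torin. Torin libraries lay above all controls, and HBSS libraries among them. The rise with Torin was 0.42 in WT (SE 0.11, adjusted p = 0.00238), and with the duplicated column added to WT Torin it was 0.21 (adjusted p = 0.242). That column held VIM at 714, below every WT HBSS and WT CTRL library. HBSS changed VIM by -0.02 (95% interval -0.24 to 0.20, adjusted p = 0.911), and VIM was lower under HBSS than under Torin by -0.44 (SE 0.12, adjusted p = 0.00322), which was -0.22 (adjusted p = 0.275) with the duplicated column added to WT Torin.

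In TFE3 KO VIM went from 862, 882 and 844 to 1417, 1253 and 1043 with Torin, the highest group mean of this gene. In TFEB KO it went from 635, 744 and 756 to 896, 929 and 883, and in the DKO from 676, 762 and 889 to 1087, 976 and 1117. None of the treated ranges overlapped with its own control. The response was 0.51 in TFE3 KO, 0.35 in TFEB KO and 0.46 in the DKO (SE 0.10 each, adjusted p = 6.97e-05, 0.00549 and 0.000266). No knockout passed against WT, without drug or under Torin, with the difference nearest to the threshold that of TFEB KO under Torin (-0.30, SE 0.11, adjusted p = 0.0518), which passed with DESeq2 (0.0466), with values under 5 left out (0.047), with rescaled values (0.0494) and with the spread of the compared libraries (0.000526). Without drug the TFEB KO difference of -0.23 (SE 0.10, adjusted p = 0.114) passed without WT CTRL replicate 3 (0.0485), and under Torin the DKO difference from TFE3 KO of -0.21 (SE 0.10, adjusted p = 0.182) passed without TFE3 KO Torin replicate 3 (0.017). TFE3 KO was higher than TFEB KO without drug by 0.28 (SE 0.10, adjusted p = 0.0282), and this no longer passed without TFEB KO CTRL replicate 1 or TFE3 KO CTRL replicate 1, 2 or 3 (adjusted p = 0.159, 0.0653, 0.0838 and 0.0536). The gene most like VIM was HNRNPA1, which encodes an RNA-binding protein (r = 0.918 over the 25 libraries).

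TIMP2 (ENSG00000035862.13, chr17:78852977-78925387, minus strand) was read at 277, 249 and 270 in WT CTRL, 326 and 343 in WT HBSS, and 289 and 306 in WT Torin. Both treatments lay above the controls. The HBSS rise was 0.33 (SE 0.08, 1.26-fold, adjusted p = 0.00042). The Torin difference of 0.16 (SE 0.08) did not pass with limma (adjusted p = 0.0863) but did with edgeR (0.0223), with DESeq2 (0.0254) and with rescaled values (0.0316). It also passed with the duplicated column added to WT Torin (0.0203). That column held TIMP2 at 365, above both WT HBSS and both WT Torin libraries, so that adding it raises the WT Torin group. TIMP2 was the only 1 of the 6 genes whose mean was highest under HBSS. The direct difference of HBSS from Torin, 0.17 (SE 0.09), did not pass with limma (adjusted p = 0.101). It passed with the spread of the compared libraries (0.0172) and with the duplicated column added to WT HBSS (0.0229).

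TIMP2 was read at 249, 266 and 242 in TFE3 KO CTRL and 276, 244 and 249 in TFEB KO CTRL, but at 205, 194 and 211 in DKO CTRL. The single knockouts overlapped with WT and the DKO lay below them all. The DKO differed from WT by -0.38 (SE 0.07, adjusted p = 7.58e-05), against -0.07 (95% interval -0.21 to 0.07) in TFE3 KO and -0.05 (-0.19 to 0.09) in TFEB KO. With Torin TIMP2 was read at 291, 312 and 300 in TFE3 KO, 311, 303 and 298 in TFEB KO, and 266, 249 and 239 in the DKO. These were rises of 0.25, 0.25 and 0.30 (SE 0.07 each, adjusted p = 0.00231, 0.00416 and 0.000308). Under Torin the DKO stayed below WT by -0.24 (SE 0.08, adjusted p = 0.0335), which no longer passed without WT Torin replicate 2 or 3 or DKO Torin replicate 2 or 3 (adjusted p = 0.083, 0.25, 0.0846 and 0.13). Below TFE3 KO Torin it lay by -0.26 (SE 0.07, adjusted p = 0.0116), which no longer passed without TFE3 KO Torin replicate 2 (0.069) or DKO Torin replicate 3 (0.0774). The gene most like TIMP2 was NCKAP5 (r = 0.938 over the 25 libraries).

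TIMP1 (ENSG00000102265.12, chrX:47582408-47586789, plus strand) has its 3′ end under the opposite-strand gene SYN1, and how strand was counted is not given in the sources used here. It was read at 69.7, 76.0 and 87.0 in WT CTRL, 70.4 and 71.4 in WT HBSS, and 72.9 and 82.0 in WT Torin. These ranges overlapped, and the differences were -0.12 for HBSS (95% interval -0.37 to 0.12) and 0.00 for Torin (-0.24 to 0.24). In TFE3 KO TIMP1 went from 90.1, 90.2 and 105 to 57.5, 76.8 and 83.0 with Torin, a change of -0.40 (SE 0.11, adjusted p = 0.0016) that no longer passed without TFE3 KO Torin replicate 1 (-0.25, adjusted p = 0.0597).

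In TFEB KO TIMP1 went from 95.9, 97.8 and 104 to 88.3, 91.7 and 79.2, and in the DKO from 79.6, 83.8 and 92.7 to 74.0, 64.7 and 84.8. Ranges overlapped in the DKO and not in TFEB KO. The difference was -0.20 in each (SE 0.11, adjusted p = 0.14 and 0.118), and in the DKO it passed without DKO Torin replicate 3 (adjusted p = 0.0362). Without drug TIMP1 was higher in TFEB KO than in WT by 0.36 (SE 0.11, adjusted p = 0.0193), which no longer passed without WT CTRL replicate 1 or 2 or TFEB KO CTRL replicate 3 (adjusted p = 0.116, 0.055 and 0.0684). For TFE3 KO the difference was 0.29 (SE 0.11, adjusted p = 0.0776), and it passed with edgeR (0.0453) and without WT CTRL replicate 3 (0.0411). The gene most like TIMP1 was TP73, a relative of p53, at r = 0.758 over the 25 libraries, the lowest of the likeness values.

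**Figure D4:**
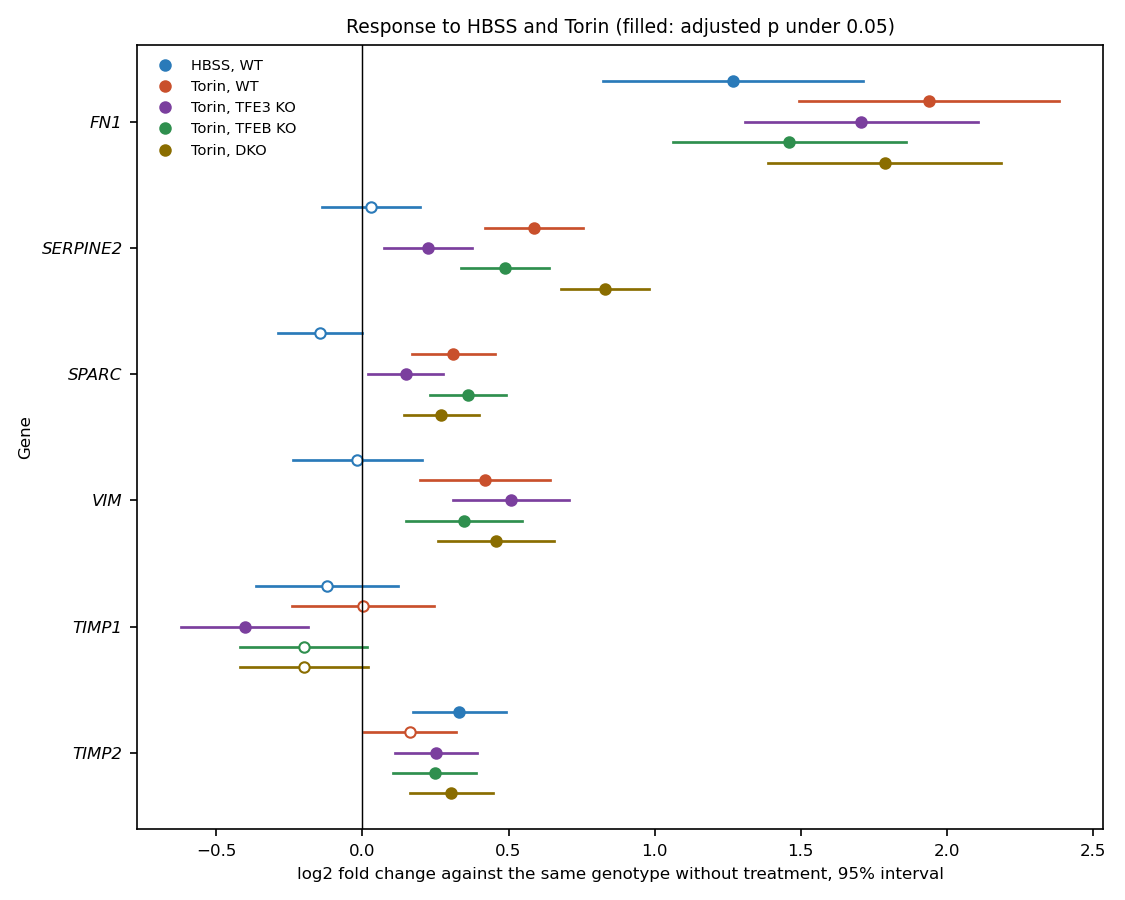
log2 fold change (horizontal axis) with HBSS in WT and with Torin in WT and each knockout, against the same genotype without treatment, for the 6 genes, with 95% intervals from limma and filled points at an adjusted p under 0.05. FN1 is the only gene beyond 1, SERPINE2 is spread from 0.22 in TFE3 KO to 0.83 in the DKO, and TIMP1 lies at or left of 0.

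Counted over the 6 genes, 2 passed and were higher with HBSS in WT, as did 23.6% of all genes tested. With Torin, 4 rose in WT (20.5% of all genes), 5 rose (25.4%) and 1 fell (26%) in TFE3 KO, 5 rose in TFEB KO (17.4%) and 5 rose in the DKO (25.4%). At 2-fold and higher, FN1 alone was called with HBSS (6.9% of all genes) and with Torin in WT (5.66%), TFE3 KO (6.98%), TFEB KO (3.36%) and the DKO (6.83%). Against WT without drug, 3 were lower in TFE3 KO (5.84%), 2 were higher in TFEB KO (7.46%) and 2 were lower in the DKO (7.49%). Under Torin the counts were 3 lower in TFE3 KO (6.23%), 1 higher in TFEB KO (9.39%) and 2 lower in the DKO (7.03%). TFE3 KO against TFEB KO gave 1 higher (14.3%) and 3 lower (15.6%), with FN1 lower by at least 2-fold (3.62%). HBSS against Torin gave 4 lower (23.1%). The DKO against TFE3 KO under Torin, a pair compared after the values were seen, gave 2 higher (5.17%) and 1 lower (4.21%). Comparisons against WT share the WT libraries, and those against the same control share it too. By mean level the 6 genes lay from percentile 82.2 (TIMP1) to percentile 99.0 (VIM) of the table, so that the shares of all genes are not matched for level.

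For the difference of the Torin response from that of WT, 0 of the 6 genes passed with limma in TFE3 KO, TFEB KO or the DKO, where 1.06%, 1.16% and 0.506% of all genes did. At an unadjusted p under 0.05 the numbers were 2, 0 and 1 with limma, 2, 0 and 1 with edgeR, and 2, 0 and 0 with DESeq2, and neither of these tools called any at an adjusted p under 0.05. Between the DKO and TFE3 KO responses 1 passed, SERPINE2, where 0.0536% of all genes did. This pair was compared after the values were seen, so that the share beside it is no measure of surprise. Values of the 6 genes went together unevenly over the 25 libraries, with r from -0.54 between VIM and TIMP1 to 0.90 between SPARC and SERPINE2. FN1 went with TIMP2 at 0.76, SERPINE2 at 0.70 and SPARC at 0.65.

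Other genes of matrix and adhesion were listed in 10 groups of 149 genes in all, of which 117 had a row and 110 were tested. With HBSS in WT 34 rose (30.9%, against 23.6% of all genes tested) and 19 fell (17.3%, against 24.7%), with a median log2 fold change of 0.13 against -0.03 over all genes tested. With Torin in WT 32 rose (29.1%, against 20.5%) and 15 fell (13.6%, against 23.4%), with a median of 0.21 against 0.00. In TFE3 KO Torin raised 38 (34.5%, against 25.4%) and lowered 18 (16.4%, against 26%). In TFEB KO it raised 38 (34.5%, against 17.4%) and lowered 9 (8.18%, against 21%), and in the DKO it raised 44 (40%, against 25.4%) and lowered 19 (17.3%, against 26.2%). In each of these 5 comparisons the share that rose was above, and the share that fell below, that of all genes. The lists were chosen with earlier results of these data known, so that the shares here and below are a description only.

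Against WT without drug 3 of the 110 were higher in TFE3 KO (2.73%, against 3.57% of all genes) and 14 lower (12.7%, against 5.84%). In TFEB KO 24 were higher (21.8%, against 7.46%) and 8 lower (7.27%, against 7.18%), and in the DKO 9 were higher (8.18%, against 5.64%) and 19 lower (17.3%, against 7.49%). The shares above that of all genes were thus those lower in TFE3 KO and the DKO and those higher in TFEB KO and, by less, the DKO, while the share lower in TFEB KO was near it. TFE3 KO against TFEB KO gave 9 higher (8.18%, against 14.3%) and 38 lower (34.5%, against 15.6%), with a median of -0.25 against 0.00 over all genes tested. The lists hold 5 to 22 tested genes each, so that 1 gene moves a list's share widely.

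Of 11 integrins tested, the receptors of the matrix, 2 rose and 1 fell with HBSS and likewise with Torin. The share that rose (18.2%) was near that of all genes (23.6% with HBSS and 20.5% with Torin), and the share that fell was 9.09% (against 24.7% and 23.4%). ITGA7, a laminin receptor chain, rose with HBSS from 36.6 ± 7.35 (SD, n = 3) to 89.4 ± 5.32 (n = 2), by 1.28 (SE 0.18, adjusted p = 6.09e-07), and was also higher in TFEB KO CTRL by 1.04 (adjusted p = 3.75e-05). ITGB8, a chain of the integrin that activates latent TGF-β, was lower in DKO CTRL at 3.30 ± 0.867 against 12.6 ± 1.27 (n = 3 each), by -1.68 (SE 0.22, adjusted p = 9.22e-08). Of 9 cadherins, catenins and related adhesion molecules tested, 4 rose with HBSS (44.4%, against 23.6% of all genes) and 6 with Torin (66.7%, against 20.5%). CDH19, a cadherin of the neural crest lineage, rose with HBSS by 1.21 (SE 0.11, adjusted p = 3.91e-13) and NCAM1 by 1.16 (SE 0.15, adjusted p = 3.09e-08), while CDH19 was lower in DKO CTRL by -1.18 (SE 0.10, adjusted p = 2.59e-13). JUP, a catenin of junctions, rose with Torin by 1.43 (SE 0.22, adjusted p = 6.66e-07).

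Among matrix proteins 3 of 7 collagens rose with HBSS (42.9%, against 23.6% of all genes) and 2 with Torin (28.6%, against 20.5%). With Torin COL6A1 went from 11.1 ± 2.04 (n = 3) to 32.3 ± 0.255 (n = 2), by 1.47 (SE 0.18, adjusted p = 6.85e-09). Of 12 laminin and basement membrane genes 3 rose (25%, near the share of all genes) and 1 fell (8.33%, against 24.7%) with HBSS, and 4 rose (33.3%) and 2 fell (16.7%, against 23.4%) with Torin. The laminin chain LAMB2 rose with Torin by 1.43 (SE 0.19, adjusted p = 1.35e-08). The cell-surface proteoglycans SDC1 and SDC2 were higher in TFEB KO CTRL by 1.35 and 1.17 (adjusted p = 0.000168 and 0.00175), and SDC1 in DKO CTRL by 1.71 (adjusted p = 1.73e-06). Of 13 matricellular genes tested, 5 rose (38.5%, against 23.6%) and 2 fell (15.4%, against 24.7%) with HBSS, and 5 rose with Torin (38.5%, against 20.5%). THBS3 rose with Torin by 1.61 and CTGF by 1.39 (adjusted p = 4.93e-06 and 2.66e-07). CYR61 and CTGF, secreted proteins known as targets of YAP and TEAD, were lower in TFE3 KO CTRL by -1.63 and -1.45 (adjusted p = 6.48e-11 and 9.71e-08). In DKO CTRL they were lower by -2.49 and -2.11 (adjusted p = 3.53e-16 and 2.08e-11), with CYR61 at 9.87 ± 2.21 against 59.3 ± 3.0 in WT CTRL (n = 3 each).

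Of the metalloproteinases and their partners, which the TIMPs act on, 14 were tested, and 5 rose (35.7%, against 23.6% of all genes) and 4 fell (28.6%, against 24.7%) with HBSS. The sheddases ADAM12 and ADAM10 rose by 1.80 and 1.06 (adjusted p = 1.98e-06 and 2e-12), with ADAM10 at 139.9 ± 7.52 (n = 2) against 66.6 ± 3.79 (n = 3). With Torin 3 of these rose and 3 fell (21.4% each, near the 20.5% and 23.4% of all genes). In the list of the plasminogen system, to which SERPINE2 belongs, and of related serpins, 1 of 5 rose (20%, against 23.6%) and 2 fell (40%, against 24.7%) with HBSS. The gene that rose was SERPINF1, a secreted serpin (PEDF), by 1.29 (adjusted p = 4.19e-16), and the urokinase receptor PLAUR fell by 1.54 (adjusted p = 8.85e-08). Of the 9 hyaluronan genes tested, the synthase HAS2 rose with HBSS by 1.72 (adjusted p = 4.53e-08), and HYAL2 fell by 1.02 with HBSS and by 1.09 with Torin (adjusted p = 7.79e-05 and 3.9e-05).

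Of 8 filament and contractile genes tested, 1 was higher (12.5%, against 23.6% of all genes) and 4 lower (50%, against 24.7%) with HBSS, and 4 were higher (50%, against 20.5%) and 1 lower (12.5%, against 23.4%) with Torin. Between HBSS and Torin directly 6 of the 8 were lower under HBSS (75%, against 23.1%). Nestin (NES) and TPM1 fell with HBSS by 1.49 and 1.03 (adjusted p = 2.37e-05 and 1.64e-12). The WT controls of NES were widely spread, at 62.9 ± 21.2 (SD, n = 3) against 20.8 ± 2.17 (n = 2) with HBSS. TPM2 and the actin crosslinker FLNA rose with Torin by 1.68 and 1.28 (adjusted p = 1.5e-07 and 1.28e-05). Their controls were spread too. TPM2 went from 6.57 ± 2.76 (SD, n = 3) to 22.1 ± 2.16 (n = 2), and FLNA from 226 ± 66.5 to 535 ± 7.73. Of 22 regulators of invasion tested, 7 rose (31.8%, against 23.6%) and 3 fell (13.6%, against 24.7%) with HBSS, where TEAD1, a partner of YAP, rose by 1.09 (SE 0.10, adjusted p = 3.39e-13). With Torin 3 rose (13.6%, below the 20.5% of all genes) and 4 fell (18.2%, against 23.4%).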

How the data were processed

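RNA from 501mel cells was made into QuantSeq Forward 3′ end libraries, so that a transcript gives reads near its 3′ end and values are not scaled by length. Per the submitters' processing notes, reads were checked with FastQC 0.11.9, trimmed (cutadapt 2.10), aligned to hg38 with STAR 2.7.8a and normalised with edgeR. The read counter, annotation, strand setting, gene filter and scaling are not given in the sources used here. The authors deposited 1 table of normalised signal (read counts divided by a factor per library), and 100% of its values fell within 0.1 of a whole number of reads once divided by the library's step.

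Values were analysed as log2(value + 1) with limma 3.58.1 (R 4.3.3; trend and robust) in 1 fit of 25 libraries and 9 groups, over the 13052 genes that reached a value of 1 in 3 or more libraries (471 left out). The study tested counts with edgeR, and limma was used because the values are normalised. Tests were 2-sided with Benjamini-Hochberg adjustment within each comparison. Alternatives were edgeR 4.0.16 and DESeq2 1.42.0 on the recovered reads, rescaling by median-of-ratios factors, the compared libraries alone, a pseudocount of 0.1, a filter at a value of 5 or none, the replicate number as a block, each replicate left out, and the duplicated column kept in either group. The fit was tested on simulated data. Of 16 comparisons listed at the start none was dropped, and 2, the DKO against TFE3 KO under Torin and the difference of their responses, were added after the values were seen.

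The 10 genes and the supporting lists were chosen with earlier results of these data known. Genes named from the lists were, per list and for HBSS in WT, Torin in WT and each knockout against WT without drug, at most the 2 with the largest change among those that passed, reached 2-fold, had a mean of at least 5 and did not overlap between groups. For likeness, the gene with the highest Pearson r was named. Positions are from GENCODE v44 and promoter windows from RefSeq. Same-numbered libraries did not deviate together (r of -0.19 to 0.16, median 0.0067, over 92 pairs), so that replicate numbers were not taken as pairs.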

Additional observations from a re-analysis of the deposited data

Results flagged for a closer look

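SERPINE2 came up because its response to Torin differed between genotypes. The response was larger in the DKO than in TFE3 KO by 0.61 on the log2 scale (SE 0.11, adjusted p = 0.0021 with limma), and the pair was compared after the values were seen. All 3 DKO Torin libraries lay above all 3 of TFE3 KO Torin. Without drug the DKO, at 429 to 457, already lay above TFE3 KO, at 361 to 379, so that this separation does not bear on the response.

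SERPINE2 also came up because the single knockouts passed on opposite sides of WT without drug, as SPARC did under Torin, and without drug TFE3 KO differed from TFEB KO by -0.70 (SE 0.07, adjusted p = 2.59e-10 with limma), with no overlap of their libraries. Each knockout is a clonal line, so that genotype and clone cannot be told apart.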

How the results depend on the processing

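No direction of a called difference turned under any alternative run. Of 47 differences of single genes that passed, 35 passed without each library in turn, and 12 lost the call without some library. Counts of the 6 genes that passed stayed within 1.5 times under edgeR, no filter, a pseudocount of 0.1 and the replicate block. For TFEB KO against WT without drug the count was 2, and 4 with DESeq2 (1 to 3 with a replicate left out, where it was 1 without WT CTRL replicate 1 or TFEB KO CTRL replicate 3). For TFEB KO against WT under Torin it was 1, and 2 with a minimum value of 5, with rescaled values, with DESeq2 and with the duplicated column added to WT Torin, 3 with the compared libraries alone, and 0 to 1 with a replicate left out. For the DKO against WT without drug it was 2, and 1 with the compared libraries alone. Under Torin it was 2, and 0 to 2 with a replicate left out, with 0 without WT Torin replicate 3. HBSS against Torin gave 4, and 2 with the duplicated column added to WT Torin. For FN1, SPARC, VIM, SERPINE2 and TIMP2 that column lay nearer to WT HBSS than to WT Torin, so that adding it to WT Torin narrows their difference. The difference of the TFE3 KO response to Torin from that of WT gave 0, and 0 to 1 with a replicate left out, with 1 (SERPINE2) without WT CTRL replicate 1. The causes were not tested.

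With the replicate number as a block, which pairs the samples by a number only, the counts were 2 for HBSS in WT, 4 for Torin in WT, 6, 5 and 5 for Torin in TFE3 KO, TFEB KO and the DKO, and 3, 3 and 2 for these knockouts against WT without drug. FN1 in TFE3 KO against WT (adjusted p = 0.0534) and VIM in TFE3 KO against TFEB KO (0.0534) lost the call in that fit, and TIMP1 in TFE3 KO (0.0472) and SPARC in TFEB KO (0.0499) against WT gained it. Each of the 6 genes had at least 176 reads in every library, and the WT HBSS and WT Torin groups of 2 libraries were the smallest.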
